A study of Homo sapiens with 21 samples.

Results

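The 34 genes described here make sterols and fatty acids, control that synthesis or move sterols out of the cell, and they were chosen by name from the 58735 genes measured by RNA-seq in MDA-MB-453 cells. They fall into 8 genes of the mevalonate arm (ACAT2 to FDFT1), 10 genes from squalene to cholesterol (SQLE to DHCR7), 5 genes of control and sterol transfer (INSIG1, SREBF1, SREBF2, SCAP and STARD4), 7 fatty acid genes (ACLY, ACACA, FASN, ELOVL6, SCD, FADS1 and FADS2) and 4 genes of efflux and of the liver X receptor, LXR (MYLIP, ABCA1, ABCG1 and NPC1). The MDA-MB-453 line, from a human breast cancer, is labelled wild type, and each of 7 groups had 3 libraries: untreated control, calcium (10 mM), cadmium (10 μM), GSK4716 (5 μM, an agonist of the estrogen-related receptor ESRRB), DES (10 μM diethylstilbestrol, an antagonist of ESRRB), DES with calcium and DES with cadmium. Treatments lasted 24 h, DES was added 3 h before a metal, and GSK4716 and DES were dissolved in ethanol. All wells spent the day before treatment in medium with 5% charcoal-stripped serum. Calcium and GSK4716 were then given without serum and cadmium in 1% charcoal-stripped serum, while the medium of the single control group during treatment and any ethanol in it are not given in the sources used here, so an effect of serum or vehicle and an effect of the agent cannot be told apart in any comparison with control. The medium of DES alone is not stated separately, so the same holds for DES with a metal against DES and for the interactions. Nothing in the labels says whether the 3 libraries of a group came from separate cultures, so p-values measure only the spread between these libraries, which may be technical.

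Cholesterol is built from acetyl-CoA through mevalonate and squalene, and fatty acids from acetyl-CoA through malonyl-CoA. When membrane sterol is low, SCAP carries the SREBP transcription factors (genes SREBF1 and SREBF2) to the Golgi, where proteases release their active part. Sterols make INSIG1 hold SCAP back, and oxysterols activate LXR, which turns on efflux genes such as ABCA1 and ABCG1 and also SREBF1.

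Levels are FPKM, fragments relative to gene length and to library size, and 33 of the 34 genes passed the filter on low values, an average of 0.5 FPKM or more across 21 libraries. ABCA1, the transporter that loads cholesterol onto apolipoproteins, did not pass and held 0 to 10 fragments in a library. A difference is given on the log2(FPKM + 0.1) scale with its SE, and a gene is called changed where limma's Benjamini-Hochberg adjusted p over 14686 genes was under 0.05. FPKM are shares of each library's RNA, so fewer cells and less RNA per cell cannot be told apart. Fragments on genes ran from 14435925 to 28424805 per library. The cells carried their luminal markers in every group, with 10 such genes summing to 1805 to 5092 FPKM per library, whereas the basal, leukocyte and endothelial markers KRT5, KRT14, PTPRC and PECAM1 stayed between 0 and 0.699 FPKM. Of the other markers listed, COL3A1, ESR1 and PGR stayed between 0 and 0.156 FPKM. The fibroblast marker COL1A1 went the other way, at 9.34 to 32.7 FPKM in the 21 libraries. The metallothionein gene MT1X, which cadmium is known to induce, was called higher in cadmium than in control (mean 212 FPKM against 0.449), as was MT2A. Both were also called higher with DES alone, MT1X at a mean of 14.8 FPKM. In DES with cadmium MT1X was at 78.3 to 1551 FPKM, above the 8.73 to 26.1 of DES, and neither gene was called there. The 9 libraries with DES had 0.783% to 3.56% of fragments on mitochondrial mRNA against 4.32% to 8.1% in the 12 without, and their part in the differences with DES was not tested. The size by which the authors scaled DES with cadmium replicate 1 was 0.693 of its fragments on genes, the lowest of the 21 libraries.

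The SREBP proteins are known to work at gene starts together with the factor NF-Y, which binds CCAAT. Sequences of 250 bases before the start were given by RefSeq (GRCh38.p14) for 29 of the 34 genes, without ACAT2, FDFT1, SQLE, FASN and ABCG1. CCAAT on either strand lay in 18 of the 29 (62.1%), against 33% of all 27305 promoters and 35.8% of the 9150 promoters matched to genes tested here. The sterol regulatory element TCACNCCAC lay only in SREBF2 of the 29, ending 124 bases before its start, and the E-box TCACGTGA only in INSIG1, ending 48 bases before its start, against 0.875% and 0.89% of all promoters and 0.907% and 1.77% of those of genes tested. The LXR direct repeat spaced by 4 and the estrogen-related receptor element TNAAGGTCA were in none of the 29, against 0.0146% and 0.85% of all promoters, and the GC box GGGCGG was in 27 (93.1%, against 68.2% of the promoters of genes tested). These are matches of letters, not measured binding. Shown here are the promoters of SREBF2 and INSIG1, for these single matches, and of HMGCS1, MVD and FDPS, the mevalonate genes with a promoter here that limma called between calcium and GSK4716, with the matches to TCACNCCAC, TCACGTGA and CCAAT, on either strand, in capitals. They lie at chr7:155297628-155297877 (INSIG1, plus strand), chr22:41832855-41833104 (SREBF2, plus), chr5:43313413-43313662 (HMGCS1, minus), chr16:88663092-88663341 (MVD, minus) and chr1:155308616-155308865 (FDPS, plus).
INSIG1: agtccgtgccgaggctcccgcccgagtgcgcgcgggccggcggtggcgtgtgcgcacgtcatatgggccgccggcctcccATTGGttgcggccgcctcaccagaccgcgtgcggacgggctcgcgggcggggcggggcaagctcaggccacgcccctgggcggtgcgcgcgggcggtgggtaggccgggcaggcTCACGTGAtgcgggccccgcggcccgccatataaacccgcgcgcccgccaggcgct
SREBF2: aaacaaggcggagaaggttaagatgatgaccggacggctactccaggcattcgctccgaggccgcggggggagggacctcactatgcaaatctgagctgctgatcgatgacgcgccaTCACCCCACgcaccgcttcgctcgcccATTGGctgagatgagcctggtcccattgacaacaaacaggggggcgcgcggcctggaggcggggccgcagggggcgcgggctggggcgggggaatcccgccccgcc
HMGCS1: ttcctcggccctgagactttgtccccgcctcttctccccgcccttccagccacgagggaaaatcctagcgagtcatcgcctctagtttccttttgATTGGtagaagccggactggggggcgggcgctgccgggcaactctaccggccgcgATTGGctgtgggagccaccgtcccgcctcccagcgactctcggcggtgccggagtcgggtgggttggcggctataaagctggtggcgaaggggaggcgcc
MVD: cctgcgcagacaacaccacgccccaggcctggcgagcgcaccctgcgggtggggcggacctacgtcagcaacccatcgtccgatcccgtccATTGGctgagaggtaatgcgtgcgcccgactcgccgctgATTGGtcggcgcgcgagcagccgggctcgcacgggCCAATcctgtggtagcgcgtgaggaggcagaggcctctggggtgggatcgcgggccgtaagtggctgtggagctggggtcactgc
FDPS: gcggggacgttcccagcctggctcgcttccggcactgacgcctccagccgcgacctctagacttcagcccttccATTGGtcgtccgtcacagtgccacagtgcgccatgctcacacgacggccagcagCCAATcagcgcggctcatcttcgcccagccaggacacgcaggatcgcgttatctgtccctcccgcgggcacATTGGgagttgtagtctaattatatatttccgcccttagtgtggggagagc

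In the control libraries the fatty acid genes SCD and FASN stood far above the others. SCD, which puts the double bond into stearate, averaged 596 ± 38.2 FPKM (SD, n = 3), and FASN, the fatty acid synthase, 473 ± 66.1. The reductase DHCR7, the last step to cholesterol, averaged 118 ± 24.2 FPKM, INSIG1 104 ± 18.8 and SREBF2 99.2 ± 16.5, so that these 3 did not differ beyond their spread. At the low end, above ABCA1, stood STARD4, a carrier of cholesterol between membranes, at 1.41 ± 0.485 FPKM, the desaturase FADS2 at 2.94 ± 0.451 and the demethylase CYP51A1 at 3.13 ± 0.155, and FADS2 and CYP51A1 did not differ beyond their spread.

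**Figure D1:**
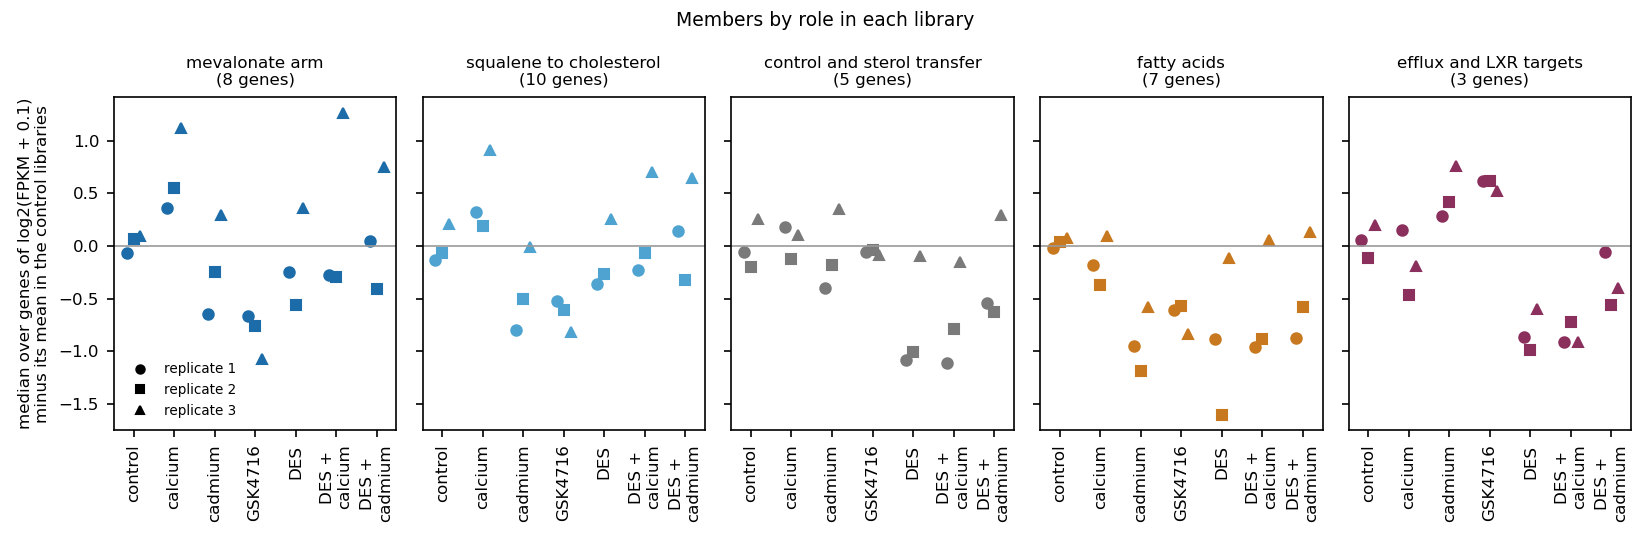
Median over the genes of each role of log2(FPKM + 0.1) minus the gene's mean in the control libraries (y axis) for each library (points, shaped by replicate number) in the 7 groups (x axis). The mevalonate arm is above 0 in all 3 calcium libraries (0.36 to 1.12) and below 0 in all 3 GSK4716 libraries (-1.07 to -0.67), while the fatty acid genes are lowest in a DES library (-1.60).

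Calcium against control asks which genes the metal moves without DES. The mevalonate enzymes MVD and FDPS and the lysosomal sterol exporter NPC1 rose, and the sterol transporter ABCG1 fell. That is 4 of 33 genes called, against 7.12% of all genes, or 3 higher against 4.6% and 1 lower against 2.53%. At an unadjusted p under 0.05, 12 members were higher and 3 lower, against 13.2% and 10.3% of all genes. The 18 genes of sterol synthesis had a median difference of 0.54 with 15 above 0, against 48.6% of all genes, and all genes tested a median of -0.01. By library the median of these 18 was highest in calcium replicate 3, and without that library the difference was 0.29. The 7 fatty acid genes had a median of -0.12 with 3 above 0, and this median ran from -0.19 to 0.00 with single libraries left out.

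FDPS, which makes farnesyl diphosphate, was at 44.7, 50.8 and 40.5 FPKM in control and at 86.2, 103 and 117 in calcium, a rise of 1.17 ± 0.16 (adjusted p = 0.0167). MVD, which makes isopentenyl diphosphate, was at 20.2, 24.8 and 26.5 FPKM in control and at 39.7, 48.4 and 52.4 in calcium, a rise of 0.97 ± 0.16 (adjusted p = 0.0258). All 3 calcium libraries lay above all 3 control libraries for both genes. FDPS has pseudogenes listed in the same table, so its level is less certain than that of MVD.

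HMGCS1, which makes the precursor HMG-CoA, was at 67.9, 77.7 and 73.9 FPKM in control and at 156, 154 and 362 in calcium. Its groups did not overlap and replicate 3 was highest, and the difference of 1.49 ± 0.35 had an adjusted p of 0.0584. IDI1, the isomerase that follows MVD, was at 44.8, 46.3 and 51.9 FPKM in control and at 62.4, 83.0 and 160.3 in calcium (difference 0.98 ± 0.34, adjusted p = 0.152). ACAT2, the thiolase that opens the arm, was at 13.0, 14.4 and 13.0 FPKM and at 17.0, 16.5 and 28.8 (difference 0.57 ± 0.23, adjusted p = 0.206). For IDI1 and ACAT2 too the lowest calcium library stood above the highest control library, and neither passed the test. Over the alternative settings the difference of IDI1 ran from 0.60 to 1.28 and that of ACAT2 from 0.31 to 0.71. The squalene synthase FDFT1 overlapped, with 45.4, 41.4 and 52.1 FPKM in control and 56.7, 43.1 and 80.0 in calcium. The kinases MVK and PMVK stayed between 12.3 and 55.3 FPKM in the 2 groups, and their differences were -0.23 and -0.03.

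Past squalene, 0 of 10 genes were called by limma (4 higher at an unadjusted p under 0.05), with differences from -0.26 to 1.21. CYP51A1 was at 3.02, 3.06 and 3.31 FPKM in control and at 5.21, 3.42 and 6.07 in calcium (difference 0.59 ± 0.24, adjusted p = 0.205). DHCR7 was at 102, 106 and 146 FPKM in control and at 146, 132 and 216 in calcium (difference 0.47 ± 0.24, adjusted p = 0.312). CYP51A1 did not overlap between the groups and DHCR7 did. Over the alternative settings the difference of CYP51A1 ran from 0.42 to 0.83 and that of DHCR7 from 0.21 to 0.63. The largest difference of the 10 was that of MSMO1, a methyl sterol oxidase, at 115.5, 129.2 and 299.5 FPKM in calcium and a mean of 73.0 in control (1.21 ± 0.41, adjusted p = 0.144, and 0.78 without calcium replicate 3).

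Of the control genes, INSIG1 was at 98.9, 87.7 and 124 FPKM in control and at 163, 151 and 243 in calcium (difference 0.82 ± 0.23, adjusted p = 0.0942). SREBF1, which favours fatty acid genes, was at 81.1, 72.0 and 97.3 FPKM in control and at 67.3, 50.2 and 55.0 in calcium (difference -0.54 ± 0.17, adjusted p = 0.121). SREBF2, which favours sterol genes, was at 94.7, 85.5 and 118 FPKM in control and at 112, 90.2 and 106 in calcium (difference 0.06 ± 0.16, adjusted p = 0.882). INSIG1 lay higher and SREBF1 lower in every calcium library, and SREBF2 overlapped.

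The 7 fatty acid genes had differences from -0.70 to 0.43 in calcium, and none was called by limma. FASN was at 476, 405 and 537 FPKM in control and at 356, 255 and 263 in calcium (difference -0.70 ± 0.21, adjusted p = 0.104), lower in all 3 libraries. SCD was at 552, 609.7 and 625 FPKM in control and at 623, 511 and 1043 in calcium (difference 0.22 ± 0.30, adjusted p = 0.725). Its groups overlapped, with replicate 3 of calcium highest. ELOVL6 was the one fatty acid gene above control in every calcium library, at 8.69 to 15.8 FPKM against 7.21 to 8.48 (difference 0.43 ± 0.25, adjusted p = 0.358).

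The exporters moved in opposite directions. NPC1 was at 4.75, 4.66 and 5.80 FPKM in control and at 8.41, 12.0 and 11.5 in calcium, a rise of 1.04 ± 0.18 (adjusted p = 0.0296). ABCG1, which passes cholesterol to high-density lipoprotein, was at 13.2, 9.67 and 16.0 FPKM in control and at 6.52, 3.20 and 4.66 in calcium, which was 1.45 ± 0.31 lower on the log2 scale (adjusted p = 0.0478). This call was lost with any 1 of the 6 libraries left out (adjusted p from 0.0573 to 0.172). Neither gene overlapped between the groups. MYLIP, a ubiquitin ligase that LXR induces and that removes lipoprotein receptors, was at 8.63, 7.93 and 8.20 FPKM in control and at 9.17, 5.96 and 7.20 in calcium, which overlapped. ABCA1 held 1, 1 and 0 fragments in control and 2, 0 and 1 in calcium. NPC1 overlaps the coding gene RMC1, and strand use in counting is not certain, so part of its fragments may belong to that gene.

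Calls in this comparison depended on single libraries, over all genes as among the members. Without control replicate 1, control replicate 2 or calcium replicate 2 there were 0 members called, against 0.0477%, 0.313% and 1.94% of all genes, and without calcium replicate 3 there were 2, against 5.16%. Of 26 other genes of the pathways that passed the filter, 1 was called with all libraries in, against 7.12% of all genes, and the median difference of the 26 was 0.02. The luminal markers KRT8 and KRT18 were the 2 of 10 called in calcium, both higher, and the 8 markers of other cells summed to 14.1 to 17.3 FPKM against 10.5 to 12.1 in control; their part in these differences was not tested.

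**Figure D2:**
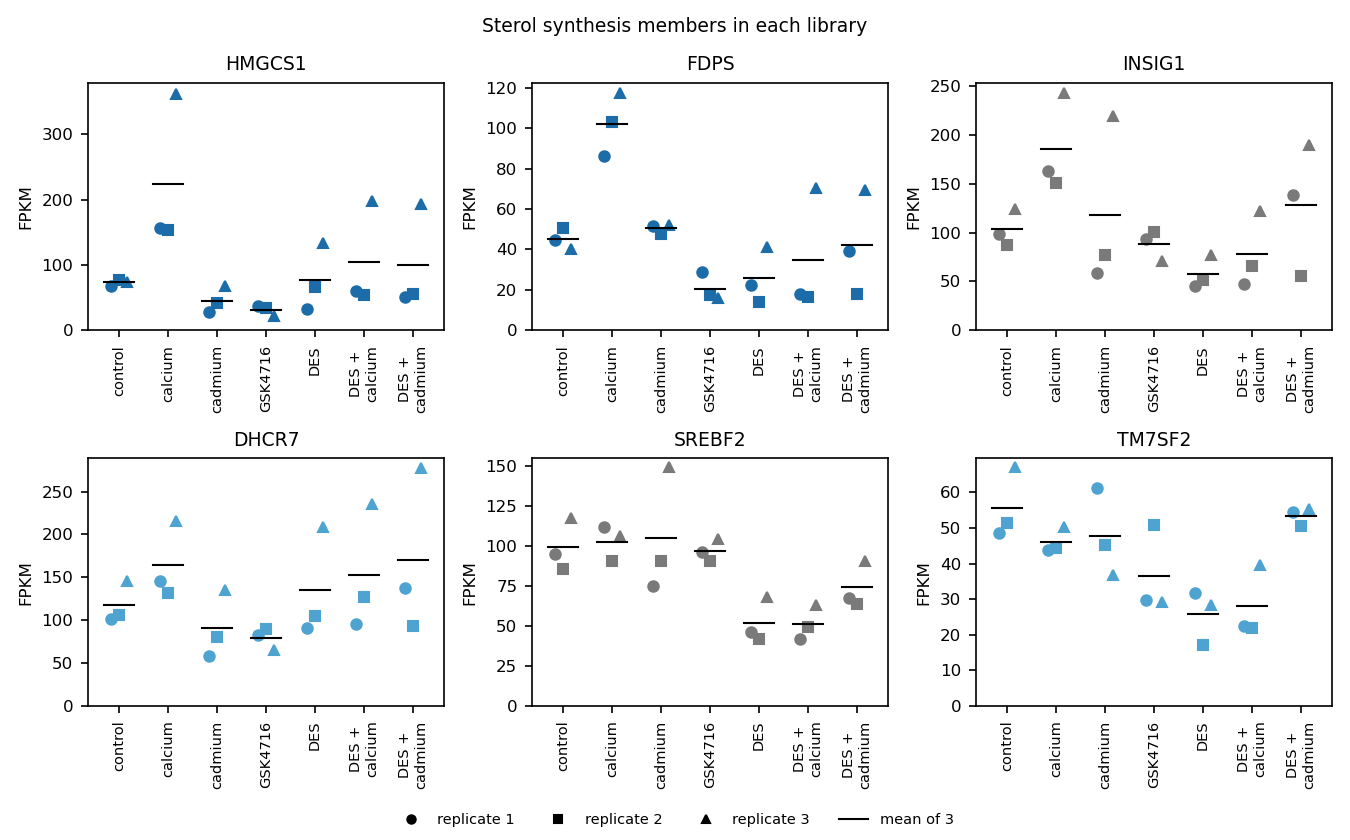
FPKM (y axis, from 0) of 6 sterol genes in each of the 21 libraries (points, shaped by replicate number) by group (x axis), with a line at the mean of 3. FDPS is highest in calcium (86.2 to 117 FPKM), and SREBF2 is lower in the DES libraries (41.9 to 67.7 FPKM) than in control (85.5 to 118).

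GSK4716 against control asks what the ESRRB agonist does to the same genes. No member was called, nor was any other gene: limma called 0% of the genes tested. At an unadjusted p under 0.05, 21 of the 33 members were lower and 2 higher, against 8.69% and 7.68% of all genes, and limma-voom on recovered fragments called 5 members, all lower, against 0.538% of all genes (0.313% lower). Of the 33 members, 21 lay below control without overlap (11.5% of all genes) and 3 above it (10.7%). Of all genes 49.7% had a difference above 0, and of the 18 sterol synthesis genes and 7 fatty acid genes none had one, with medians of -0.68 and -0.60. MYLIP, ABCG1 and NPC1 were the 3 members above control without overlap.

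The mevalonate arm had the widest differences. HMGCS1 was at 37.5, 33.6 and 21.3 FPKM in GSK4716 against the control values given above (difference -1.29 ± 0.22, adjusted p = 0.142). FDPS was at 28.7, 17.2 and 16.1 FPKM (difference -1.17 ± 0.24, adjusted p = 0.153). ACAT2 was at 7.13, 3.88 and 4.48 FPKM (difference -1.41 ± 0.23, adjusted p = 0.139). Each of the 3 genes was lower in every GSK4716 library than in any control library.

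MVD was at 12.6, 12.5 and 12.0 FPKM in GSK4716 (difference -0.93 ± 0.12, adjusted p = 0.139). IDI1 was at 29.5, 33.4 and 21.2 FPKM (difference -0.79 ± 0.18, adjusted p = 0.172). FDFT1 was at 31.4, 30.6 and 24.1 FPKM (difference -0.69 ± 0.14, adjusted p = 0.158). Again no library overlapped control for these 3. The kinases MVK and PMVK of the same arm overlapped control, with differences of -0.42 and -0.13.

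Past squalene, the 10 genes lay between -0.99 and -0.46. The smallest adjusted p of any member was 0.0939, for EBP, the isomerase that moves a sterol double bond, at a mean of 21.4 FPKM against 42.4 in control (difference -0.99 ± 0.08). CYP51A1 was at 2.10, 2.00 and 2.28 FPKM (difference -0.54 ± 0.13, adjusted p = 0.172). DHCR7 was at 82.9, 89.6 and 65.0 FPKM (difference -0.57 ± 0.19, adjusted p = 0.244). Both were below control in every library. TM7SF2, a sterol reductase, was at 48.7, 51.5 and 67.0 FPKM in control and at 29.6, 50.8 and 29.3 in GSK4716, and its groups overlapped.

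Of the control genes, INSIG1 was at 93.1, 100.3 and 71.3 FPKM in GSK4716 (difference -0.23 ± 0.19, adjusted p = 0.579). SREBF1 was at 79.4, 107 and 78.0 FPKM (difference 0.07 ± 0.17, adjusted p = 0.87). SREBF2 was at 95.9, 90.6 and 104 FPKM (difference -0.02 ± 0.14, adjusted p = 0.957). The groups overlapped for all 3 genes. STARD4 was at 0.487 to 0.935 FPKM, below every control library (1.06 to 1.96; difference -0.87 ± 0.32, adjusted p = 0.271).

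Among the fatty acid genes, FASN was at 198, 284 and 176 FPKM in GSK4716 (difference -1.13 ± 0.22, adjusted p = 0.152). ELOVL6, which lengthens palmitate, was at 8.48, 8.28 and 7.22 FPKM in control and at 4.69, 5.16 and 4.73 in GSK4716 (difference -0.70 ± 0.11, adjusted p = 0.139). SCD was at 414, 598 and 278 FPKM (difference -0.54 ± 0.29, adjusted p = 0.418). FASN and ELOVL6 were below control in every library, and SCD overlapped it.

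ABCG1 was at 19.6, 25.2 and 23.3 FPKM in GSK4716, above every control library (difference 0.82 ± 0.20, adjusted p = 0.183). MYLIP was at 13.9, 12.7 and 11.9 FPKM, also above (difference 0.62 ± 0.09, adjusted p = 0.139). NPC1 was at 6.21, 6.12 and 6.01 FPKM, above control by a smaller margin (difference 0.27 ± 0.12, adjusted p = 0.327). ABCA1 held 1, 0 and 0 fragments. In the 26 other genes of the pathways, 1 was higher and 6 were lower at an unadjusted p under 0.05, against 7.68% and 8.69% of all genes, with a median of -0.14.

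Calcium and GSK4716 were given in the same stated medium, serum-free, and these groups were compared with each other after their values had been seen. Limma called 7 of 33 members against 2.29% of all genes, 6 of them sterol synthesis genes that were higher in calcium. HMGCS1 was 2.78 ± 0.39 higher (adjusted p = 0.0297), FDPS 2.34 ± 0.25 (adjusted p = 0.0237), ACAT2 1.99 ± 0.31 (adjusted p = 0.0358) and MVD 1.90 ± 0.13 (adjusted p = 0.012). The dehydrogenase NSDHL and EBP were the other two, at 1.02 and 1.25. ABCG1 was the one called lower in calcium, at -2.27 ± 0.27 (adjusted p = 0.0242).

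All 18 sterol synthesis genes were above 0 in calcium against GSK4716, against 49.3% of all genes, with a median of 1.19, and 14 of the 18 did not overlap, against 14.4% of all genes. The 7 fatty acid genes had a median of 0.48 and none was called by limma (3 higher at an unadjusted p under 0.05, against 11.9% of all genes). Of the 26 other genes of the pathways 3 were called, against 2.29% of all genes, and all 3 were higher in calcium, against 1.8%. Among them was ACSS2, which makes acetyl-CoA from acetate, at a mean of 33.3 FPKM in calcium and 9.56 in GSK4716 (1.74 ± 0.30, adjusted p = 0.0478). Leaving out any 1 GSK4716 library left 0 members called, and without calcium replicate 1, 2 or 3 there were 3, 1 and 2. Over all genes the calls fell from 336 to between 0 and 11 without a GSK4716 library and to 100, 27 and 26 without calcium replicate 1, 2 or 3. Of the 10 luminal markers 2 were called here, KRT8 and KRT18, both higher in calcium, and the 8 markers of other cells summed to 14.1 to 17.3 FPKM in calcium against 9.80 to 12.1 in GSK4716; their part in these differences was not tested. The ethanol vehicle of GSK4716 and the agents cannot be told apart here.

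**Figure D3:**
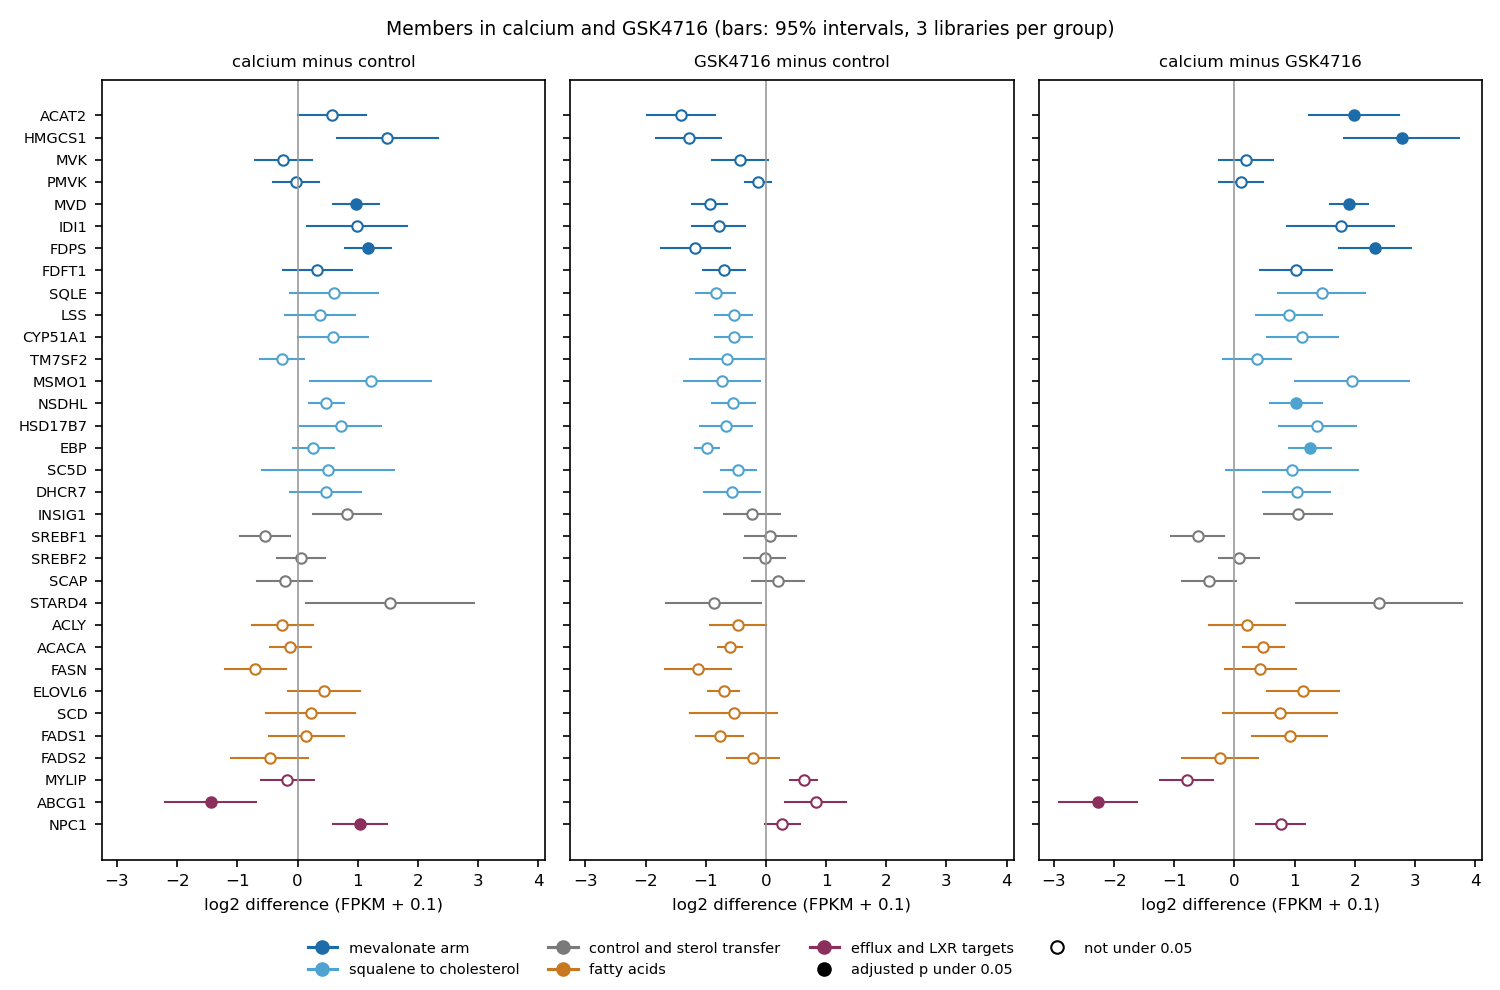
Difference in log2(FPKM + 0.1) (x axis, points with 95% intervals) of the 33 members that passed the filter (y axis, coloured by role) for calcium minus control, GSK4716 minus control and calcium minus GSK4716, with filled points where the adjusted p was under 0.05. In the panel of calcium minus GSK4716 every sterol synthesis gene is above 0 (0.11 to 2.78) and ABCG1 is at -2.27.

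Cadmium against control gave 0 of 33 members called, against 0.15% of all genes, and 7, all lower, by limma-voom, against 3.28% of all genes in that fit (1.66% lower). At an unadjusted p under 0.05, 3 members were higher and 11 lower, against 13.6% and 12.4% of all genes. The fatty acid genes were the lowest role, with none of 7 above 0 (52.9% of all genes), a median of -0.87 and 5 of 7 below control without overlap (16.7% of all genes). FASN was at 188, 122 and 219.7 FPKM in cadmium (difference -1.46 ± 0.26, adjusted p = 0.0635). ELOVL6 was at 3.14, 2.50 and 4.58 FPKM (difference -1.25 ± 0.24, adjusted p = 0.0682). SCD was at 183, 256 and 767 FPKM (difference -0.85 ± 0.52, adjusted p = 0.338). SCD replicate 3 lay above every control library and the other two below, while FASN and ELOVL6 were below control in all 3. ACLY, which makes acetyl-CoA from citrate, had a mean of 37.5 FPKM against 68.6 (difference -0.87 ± 0.11, adjusted p = 0.0507), and the carboxylase ACACA a mean of 7.32 against 13.6 (difference -0.90 ± 0.18, adjusted p = 0.07).

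The sterol synthesis genes were mixed in cadmium, with 13 of 18 below 0 and a median of -0.34, which went to -0.52 when cadmium replicate 3 was left out and to -0.18 when replicate 1 was. CYP51A1 was at 0.966, 1.06 and 1.49 FPKM, less than any library of the other 6 groups (difference -1.37 ± 0.22, adjusted p = 0.0621). HMGCS1 was at 28.0, 41.5 and 67.2 FPKM (difference -0.77 ± 0.31, adjusted p = 0.187). DHCR7 was at 58.4, 80.2 and 135 FPKM (difference -0.44 ± 0.33, adjusted p = 0.427). HMGCS1 lay below control throughout, and DHCR7 replicate 3 lay inside its range.

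MVD was at 15.1, 21.0 and 30.7 FPKM, IDI1 at 30.4, 53.3 and 65.6 and FDPS at 51.8, 47.6 and 52.2, and all 3 overlapped control. ACAT2 was at 10.2, 7.07 and 7.22 FPKM, below it (difference -0.74 ± 0.18, adjusted p = 0.0902). TM7SF2 was at 61.1, 45.1 and 36.8 FPKM and FDFT1 at 27.2, 36.7 and 77.7. Both overlapped control, with replicate 3 at the low end for TM7SF2 and at the high end for FDFT1.

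INSIG1 was at 58.3, 76.5 and 219 FPKM in cadmium, SREBF1 at 64.4, 54.1 and 86.8 and SREBF2 at 74.6, 90.4 and 149. Each overlapped control, and replicate 3 was highest for each. ABCG1 was at 15.5, 13.9 and 14.6 FPKM (difference 0.20 ± 0.20, adjusted p = 0.538). MYLIP was at 10.3, 11.1 and 14 FPKM, above control (difference 0.50 ± 0.16, adjusted p = 0.125). NPC1 was at 4.38, 7.16 and 10.1 FPKM, with replicate 3 highest (difference 0.43 ± 0.31, adjusted p = 0.412). ABCA1 held 3, 3 and 9 fragments. Without cadmium replicate 1, limma called 7 members, 1 higher and 6 lower, against 10.9% of all genes (5.43% higher and 5.5% lower).

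DES against control asks what the ESRRB antagonist does alone, and 9 of the 33 members were called, against 29.6% of all genes. MYLIP and FDFT1 rose (2 of 33, against 16.7% of all genes), and ELOVL6, TM7SF2, ABCG1, NPC1, SREBF2, ACACA and INSIG1 fell (7 of 33, against 12.9%). The 18 sterol synthesis genes had a median of -0.09 with 1 called in each direction, the 7 fatty acid genes a median of -0.88 and the 5 control genes a median of -0.79, beside 0.05 for all genes. The sterol median turned on single libraries, at -0.35 without DES replicate 3 and 0.04 without DES replicate 2. Without DES replicate 1 the median of the control genes was -0.46.

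MYLIP was at 23.3, 31.3 and 40.9 FPKM with DES, above every control library (rise of 1.90 ± 0.22, adjusted p = 0.00196). FDFT1, the enzyme that commits farnesyl diphosphate to sterols, was at 79.3, 88.3 and 118 FPKM, also above (rise of 1.02 ± 0.20, adjusted p = 0.0102). ELOVL6 was at 2.88, 1.45 and 1.56 FPKM, below every control library (-2.03 ± 0.28, adjusted p = 0.00362). MYLIP, ELOVL6 and ACACA kept their call in each of the 16 alternative settings tried. The call was lost in 3 of the 16 for FDFT1 and ABCG1, in 4 for TM7SF2, in 5 for NPC1 and SREBF2 and in 7 for INSIG1, at an adjusted p of up to 0.18.

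TM7SF2 was at 31.6, 17.1 and 28.4 FPKM with DES (-1.15 ± 0.26, adjusted p = 0.0182). ABCG1 was at 6.96, 6.01 and 6.06 FPKM (-0.99 ± 0.21, adjusted p = 0.0146). NPC1 was at 1.90, 2.50 and 3.31 FPKM (-0.98 ± 0.24, adjusted p = 0.0241). All 3 genes were below control in every library. TM7SF2 overlaps the coding gene VPS51 on the same strand, so its level is uncertain whichever strand setting was used in counting.

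SREBF2 was at 46.3, 41.9 and 67.7 FPKM with DES, below every control library (-0.95 ± 0.23, adjusted p = 0.0217). INSIG1 was at 45.2, 51.0 and 77.0 FPKM, likewise (-0.87 ± 0.24, adjusted p = 0.0364). SREBF1 was at 48.2, 41.9 and 86.5 FPKM, and replicate 3 lay inside the control range (difference -0.57 ± 0.29, adjusted p = 0.174). ACACA, the first committed step to fatty acids, had a mean of 7.39 FPKM against 13.6 in control (-0.88 ± 0.16, adjusted p = 0.00827).

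For FASN and SCD the 3 DES libraries were far apart. FASN was at 178, 155 and 524 FPKM (difference -0.95 ± 0.46, adjusted p = 0.159). SCD was at 119, 100.1 and 563 FPKM (difference -1.66 ± 0.62, adjusted p = 0.0844). In both genes replicates 1 and 2 were far below control and replicate 3 was inside its range.

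Among the sterol enzymes HMGCS1 was at 32.2, 66.2 and 133 FPKM, IDI1 at 24.8, 24.9 and 52.4 and MVD at 20.2, 17.7 and 56.2. FDPS was at 22.2, 13.9 and 41.5 FPKM and DHCR7 at 91.2, 105 and 209. Replicate 3 was highest for all 5 of these genes. It lay above every control library for HMGCS1, IDI1, MVD and DHCR7 and inside the control range for FDPS. CYP51A1 was at 3.10, 4.59 and 3.57 FPKM and ACAT2 at 13.6, 9.48 and 17.9. ABCA1 held 0, 0 and 10 fragments.

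Without DES replicate 3 the count of members called was 18, with 2 higher and 16 lower, against 28.5% of all genes (16% higher and 12.6% lower). Without control replicate 1, control replicate 2, control replicate 3 or DES replicate 2 it was 4, 5, 6 and 5, against 13.1%, 14.5%, 19.9% and 16.6% of all genes. Of the 26 other genes of the pathways 7 were called with all libraries in, against 29.6% of all genes, and all 7 were lower, against 12.9%. Among them were INSIG2, the second SCAP-holding protein (mean 11.8 FPKM against 25.5), the SREBP proteases MBTPS1 (7.35 against 12.6) and MBTPS2 (1.60 against 3.36) and the elongases ELOVL1 (24.6 against 45.0) and ELOVL5 (16.1 against 25.5). The luminal markers FOXA1 and GATA3 were among those called lower, and the 10 luminal markers summed to 1805 to 3012 FPKM with DES against 2379 to 3145 in control; the 8 markers of other cells summed to 12.5 to 33.3 FPKM against 10.5 to 12.1, of which COL1A1 had at least 9.34 in every library. Their part in these differences was not tested.

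**Figure D4:**
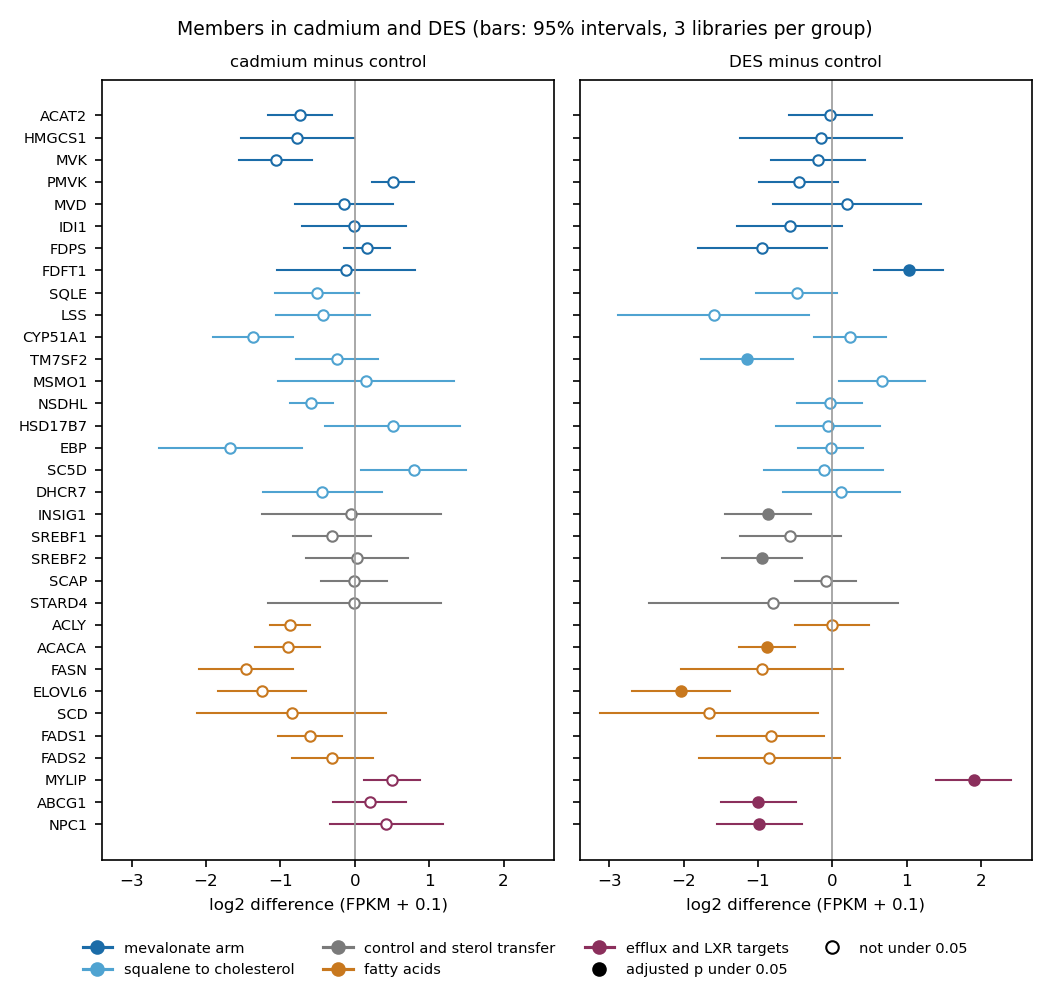
Difference in log2(FPKM + 0.1) (x axis, points with 95% intervals) of the 33 members (y axis, coloured by role) for cadmium minus control and DES minus control, with filled points where the adjusted p was under 0.05. All 7 fatty acid genes are below 0 in cadmium (-1.46 to -0.30), and in DES the filled points run from ELOVL6 at -2.03 to MYLIP at 1.90.

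DES with calcium against DES and DES with cadmium against DES ask what a metal does once DES is present. Both share the DES libraries, and each had 0 of 33 members called, against 0.136% and 0.266% of all genes. At an unadjusted p under 0.05, 0 members were higher and 2 lower with calcium, against 4.51% and 8.71% of all genes. With cadmium 2 were higher and 1 lower, against 2.36% and 8.03%, and limma-voom called 0 in both comparisons. The 18 sterol synthesis genes had a median of 0.20 with calcium and 0.30 with cadmium, and the 7 fatty acid genes 0.25 and 0.31. These medians too turned on single libraries: without replicate 3 of the group with the metal, the sterol median was -0.17 with calcium and -0.11 with cadmium. Here libraries with the same number went together, and with the number as a block 0 members were called as well.

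MYLIP, called higher with DES, stood lower in both groups that added a metal. It was at 12.6, 13.1 and 21.7 FPKM in DES with calcium, below every DES library (difference -1.01 ± 0.29, adjusted p = 0.264). In DES with cadmium it was at 14.7, 15.9 and 19.4 FPKM, also below (difference -0.90 ± 0.26, adjusted p = 0.294). All 6 of these libraries were nevertheless above the 3 control libraries. TM7SF2 was at 22.5, 21.9 and 39.6 FPKM in DES with calcium and at 54.5, 50.7 and 55.2 in DES with cadmium, the latter above every DES library (difference 1.10 ± 0.27, adjusted p = 0.228).

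ELOVL6 was near its DES level, at 2.60, 2.32 and 2.68 FPKM with calcium and at 2.14, 2.07 and 2.08 with cadmium. NPC1 was at 2.35, 2.72 and 2.64 FPKM with calcium and at 3.51, 3.32 and 3.79 with cadmium. ABCG1 was at 6.71, 7.69 and 6.28 FPKM with calcium and at 12.2, 8.59 and 7.36 with cadmium. With cadmium, NPC1 and ABCG1 lay above every DES library and ELOVL6 lay within their range. ABCA1 held 0 fragments in all 3 libraries of DES with calcium and 0, 2 and 0 in DES with cadmium.

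SREBF2 was at 41.7, 49.2 and 63.1 FPKM in DES with calcium and at 67.6, 63.5 and 90.7 in DES with cadmium. SREBF1 was at 39.8, 40.4 and 74.5 FPKM and at 48.6, 102 and 102. INSIG1 was at 47.6, 65.3 and 122 FPKM and at 139, 55.9 and 189. As groups all 3 genes overlapped the DES libraries. Pair by pair, INSIG1 was higher than in the DES library of the same number for all 3 numbers with either metal, and SREBF1 and SREBF2 were so with cadmium.

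FASN was at 146, 130.3 and 379 FPKM in DES with calcium and at 152, 412 and 506 in DES with cadmium. SCD was at 113, 192 and 832 FPKM and at 188, 479.7 and 880.4. FDFT1 was at 92.5, 94.3 and 148 FPKM and at 137, 53.4 and 145. Replicate 3 was the highest of each of these groups of 3.

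HMGCS1 was at 59.9, 53.3 and 199 FPKM in DES with calcium and at 51.7, 56.3 and 193 in DES with cadmium. FDPS was at 17.8, 16.3 and 70.4 FPKM and at 39.2, 17.9 and 69.3, and MVD at 20.0, 18.7 and 68.6 and at 20.1, 34.9 and 75.2. IDI1 was at 36.6, 39.6 and 116 FPKM and at 20.4, 20.2 and 70.3, and ACAT2 at 11.2, 12.7 and 32.2 and at 16.6, 7.47 and 22.8. In each of these 5 genes replicate 3 was again highest. DHCR7 was at 95.9, 126 and 236 FPKM and at 138, 93.6 and 278, and CYP51A1 at 3.82, 4.0 and 3.17 and at 3.21, 2.92 and 7.14.

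Compared number by number, 15 of 33 members were higher in DES with cadmium than in DES for all 3 numbers and 1 was lower, against 19.4% and 22% of all genes. For DES with calcium 8 were higher and 4 lower, against 20.2% and 21.6%.

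**Figure D5:**
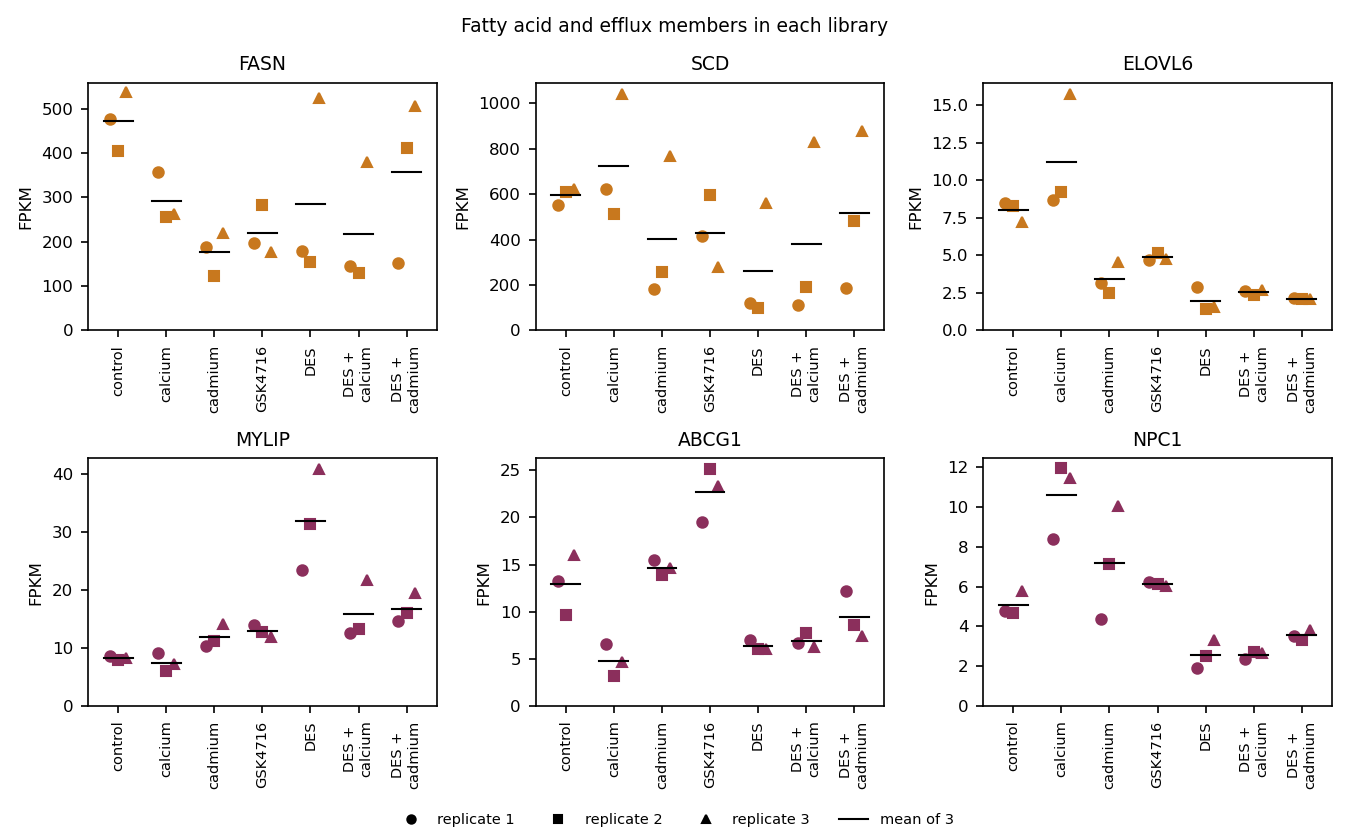
FPKM (y axis, from 0) of 3 fatty acid genes and 3 efflux and LXR genes in each of the 21 libraries (points, shaped by replicate number) by group (x axis), with a line at the mean of 3. MYLIP is highest in DES (23.3 to 40.9 FPKM), ABCG1 is highest in GSK4716 (19.6 to 25.2 FPKM), and SCD in the DES groups spans 100.1 to 880.4 FPKM with replicate 3 on top.

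Whether a metal acts otherwise with DES than without it was tested as an interaction, its effect with DES minus its effect without. For calcium 1 of 33 members was called, ABCG1, against 3.63% of all genes. The effect of calcium on ABCG1 was -1.45 without DES and 0.12 with it, an interaction of 1.56 ± 0.36 (adjusted p = 0.0359), and the call was lost in 11 of the 22 alternative settings. The 18 sterol synthesis genes had a median interaction of -0.27 with calcium, with -0.69 when replicate 3 of DES with calcium was left out and -0.01 when that of DES was, and none was called. For cadmium 0 members were called by limma or limma-voom, against 1.18% and 0.838% of all genes. With the replicate number as a block 2 were called, MVK higher and MYLIP lower, against 1.98% of all genes, and in the fit of all 7 groups 5, against 5.46%, which were CYP51A1, EBP, ACACA and ELOVL6 (higher) and MYLIP (lower). In the fit of the 4 groups there were 8 higher and 1 lower at an unadjusted p under 0.05, against 6.91% and 11.6% of all genes. The 7 fatty acid genes all had an interaction with cadmium above 0, against 45.6% of all genes, with a median of 1.10 beside -0.09 for all genes, and the smallest adjusted p among the members was 0.0591, for MYLIP at -1.40 ± 0.32.

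Of the members described next, EBP alone was called in any comparison, that of calcium with GSK4716. LSS, which closes squalene epoxide into lanosterol, ran from 38.6 to 50.0 FPKM in control and from 7.86 to 36.9 with DES, below it throughout (difference -1.60 ± 0.55, adjusted p = 0.065). EBP ran from 40.9 to 44.4 FPKM in control and from 7.07 to 22.0 in cadmium, the widest difference of any member there (-1.67 ± 0.40, adjusted p = 0.0876). SQLE, the epoxidase before LSS, ran from 58.0 to 73.6 FPKM in control, from 74.7 to 159 in calcium and from 32.3 to 40.5 in GSK4716, so that the 3 groups did not overlap. HSD17B7, a sterol ketone reductase with pseudogenes, likewise ran from 5.15 to 7.33, from 7.92 to 14.5 and from 3.42 to 4.28 FPKM. SC5D, a desaturase of the last steps, was above control in cadmium, at 10.4 to 21.4 FPKM against 9.11 to 10.1 (difference 0.79 ± 0.29, adjusted p = 0.16). STARD4 was at 1.06 to 1.96 FPKM in control, 2.30 to 9.95 in calcium and 0.487 to 0.935 in GSK4716. SCAP stayed between 13.8 and 27.8 FPKM in all 21 libraries. The desaturases FADS1 and FADS2, which share a locus and overlap, stayed between 0.843 and 8.06 FPKM, with differences from -0.85 to 0.15 against control.

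Replicate 3 held the highest level of its group for 23 of 33 members in control, 24 in calcium, 25 in cadmium, 25 in DES, 28 in DES with calcium and 26 in DES with cadmium, and for 3 of 33 in GSK4716. Over all genes these shares were 38.6%, 36%, 40.9%, 38.4%, 33.3%, 24.6% and, in GSK4716, 31.6%. It was highest in all 3 groups with DES at once for 23 of 33 members, against 7.61% of all genes. The labels give no batch for replicate 3, so this stands as a property of the libraries.

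Sterol and fatty acid synthesis can also be set against each other within a library, which leaves library size aside. The median of the 18 sterol synthesis genes minus that of the 7 fatty acid genes, each relative to control, was -0.07, -0.06 and 0.07 in the control libraries and 0.51, 0.61 and 0.92 in calcium. It was 0.26, 0.77 and 0.73 in cadmium and -0.09 to 0.01 in GSK4716. In the 9 libraries with DES it ran from 0.25 to 1.21. The 15 libraries with a metal or DES all stood above the 3 controls, and the GSK4716 libraries stood beside them. These medians over genes of a fixed list are a description and carry no test. Each gene is set against the mean of the same control libraries, so the controls lie near 0 by construction.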

How the data were processed

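RNA-seq of poly-A RNA was analysed for 21 libraries, 3 in each of 7 groups taken from the sample titles. The authors deposited FPKM per gene and library. The submitters' processing notes list HISAT2 2.0.5, featureCounts 1.5.0-p3 and GRCh38.p14, and both a directional and a non-directional library type are described, which leaves members that overlap another gene (24 of 34, and a coding gene in 9) uncertain, as are FDPS, HSD17B7 and SCD, which have pseudogenes. FPKM times gene length gave whole fragments for 100% of values in every library (tolerance 0.01), and no more than 4.97% of detected genes were equal between any 2 libraries. A count of 0 fragments allows up to 3 by counting error alone.

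The test was limma 3.58.1 in R 4.3.3 (a linear model with moderated variances that follow a trend in the mean) on log2(FPKM + 0.1), fitted to the groups of each comparison alone and to every gene whose mean over the libraries reached 0.5 FPKM, 14686 in all. Two-sided p-values were corrected by Benjamini and Hochberg across these genes within a comparison, and 0.05 was the threshold. The fit was also run on simulated data, and no result given here rests on that run. Comparisons with control share the control libraries. Calcium against GSK4716 and the fits with no replicate 3 in the groups with DES were chosen after seeing the data. Python 3.11.15 with numpy 2.4.6, pandas 2.3.3 and matplotlib 3.10.9 made the tables and plots, and promoters came from RefSeq.

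Equal replicate numbers were taken to pair libraries where the deviations from the group means correlated at over 0.1 in all 3 pairs, since the labels name no shared batch. The correlations between DES with calcium and DES were 0.132, 0.103 and 0.28, those between DES with cadmium and DES 0.472, 0.121 and 0.313.

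The members, their roles and the other gene lists were chosen with earlier results of these data known. Values in every library are given for members called in a comparison, up to the 3 largest rises and 3 largest falls, and always for HMGCS1, IDI1, CYP51A1, DHCR7, INSIG1, SREBF1, SREBF2, FASN, SCD, ABCA1 and ABCG1. EBP, MSMO1, NSDHL, ACLY, ACACA and the named genes that are no members were picked out after their values were seen. Each result was recomputed with every library left out in turn, a larger pseudocount (1), a stricter filter (mean FPKM of 2) or none, scaling by median ratios or by total fragments on genes, quantile normalization, one fit for the 7 groups, the replicate number as a block, and limma-voom on the recovered fragments.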

Additional observations from a re-analysis of the deposited data

Results flagged for a closer look

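The effect of calcium on ABCG1 differed between cells with and without DES. Without DES it was at 13.2, 9.67 and 16.0 FPKM in control and at 6.52, 3.20 and 4.66 in calcium, and with DES at 6.96, 6.01 and 6.06 FPKM alone and at 6.71, 7.69 and 6.28 with calcium. Tested as an interaction in one limma fit, the difference was 1.56 ± 0.36 on the log2 scale (adjusted p = 0.0359). ABCG1 was already lower with DES alone, at a difference from control of -0.99, against -1.45 for calcium without DES. The adjusted p ran from 0.0218 to 0.128 over the 22 alternatives and was over 0.05 in 11 of them.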

How the results depend on the processing

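Counts of called members under the alternatives are set against those reported (limma, adjusted p under 0.05), and the cause of a change was not tested unless stated. For calcium against control, 4 members became 0 with no filter on low values, 2 with all 7 groups in one fit, 1 with the replicate block and 7 by limma-voom (0.133%, 5.06%, 1.77% and 10.8% of all genes), and ranged from 0 to 3 with single libraries left out. For cadmium against control, 0 became 2 with a pseudocount of 1, 2 at a mean FPKM of at least 2, 3 by quantile normalization, 4 in the fit of all 7 groups and 7 by limma-voom (1.01%, 1.56%, 1.18%, 6.99% and 3.28% of all genes), and ranged from 0 to 7 with single libraries left out. For GSK4716 against control, 0 became 5 by limma-voom (0.538% of all genes) and stayed 0 with any library left out. For DES against control, 9 became 3 with no filter and 18 with no replicate 3 in the groups with DES (4.67% and 28.5% of all genes), and ranged from 4 to 18 with single libraries left out. In the fit of all 7 groups, DES with calcium against DES had 1 and DES with cadmium against DES 3, in place of 0 each (1.13% and 4.11% of all genes). For calcium against GSK4716, 7 became 0 with no filter, 15 at a mean FPKM of at least 2, 0 with the replicate block and 19 by limma-voom (0.00886%, 5.11%, 0.0749% and 5.29% of all genes), and ranged from 0 to 3 with single libraries left out. The interaction of calcium with DES went from 1 to 0 with no filter and to 0 with no replicate 3 in the groups with DES (0.461% and 0.851% of all genes), and ranged from 0 to 2 with single libraries left out. That of cadmium went from 0 to 1 with a pseudocount of 1, to 5 in the fit of all 7 groups and to 2 with the replicate block (2.51%, 5.46% and 1.98% of all genes), and ranged from 0 to 3. The calls over all genes moved in the same fits, for example from 1046 to between 7 and 758 for calcium against control with single libraries left out. Of the 144 differences of single members that were called or at least 0.5 in size, 1 changed sign: SC5D in calcium against control was -0.01 without calcium replicate 3 and 0.91 without calcium replicate 1, the ends of its range with single libraries left out. Of the 153 smaller differences 90 changed sign under some alternative, such as those of SCD (from -0.19 to 0.44) and FADS1 (from -0.11 to 0.31) in calcium and MSMO1 (from -0.33 to 0.60) in cadmium against control. Quantile normalization split the calcium calls 3 higher and 3 lower, in place of 3 and 1, and the DES calls 1 and 12, in place of 2 and 7. Over all genes the calcium shares were 5.2% higher and 4.42% lower, in place of 4.6% and 2.53%. Those of DES were 14.1% and 17.3%, in place of 16.7% and 12.9%.

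For the comparisons with control and for calcium against GSK4716, the numbers did not pair the libraries by this check. The check used all genes tested, not the members alone, and was not made for the interactions. The replicate block changed the counts as given. Scaling by total fragments moved the median of all genes from 0.05 to -0.12 for DES against control and from -0.01 to -0.13 for calcium against control. With 3 libraries a group and 1 control group, differences smaller than the spread between libraries could not be seen, which holds most for genes such as SCD and HMGCS1 that varied widely within a group.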
